A study of Mus musculus with 6 samples.

Results

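The genes that build cholesterol and fatty acids, together with the factors that switch them on and the pumps that carry sterol out of the cell, were measured in CT26 tumors treated or not with H89. The list holds 32 genes of the 23557 in the deposited table and was drawn up by name, by a rule that uses no measured value, though with earlier results of these data known. CT26 is a colon carcinoma line derived from a BALB/c mouse, and H89 is a small-molecule inhibitor of protein kinase A that also acts on other kinases. Female BALB/c mice, 7 weeks old per the study's methods, received 500000 CT26 cells under the skin. From day 6 they were injected into the peritoneum 2 times a week with H89 at 10 mg/kg in NaCl (the H89 group, 3 tumors) or with NaCl (the NaCl group, 3 tumors). No allele was altered in either group, every tumor was taken 14 days after the cells were injected, and each came from 1 mouse. Total RNA of the whole tumor was sequenced, so that fewer cells of a type and less RNA per cell cannot be told apart. The labels give no batch or date.

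Cholesterol is made from acetyl-CoA through mevalonate, isoprenoids, squalene and lanosterol, and fatty acids from the same acetyl-CoA by carboxylation, chain building, elongation and desaturation. When sterol in the endoplasmic reticulum falls, the membrane-bound factors SREBP1 and SREBP2, encoded by Srebf1 and Srebf2, are carried to the Golgi and cut, and the released part enters the nucleus and turns on these enzymes, often through sites next to CCAAT and GC boxes. Insig1 retains the precursors when sterol is ample. Oxysterols that accumulate with sterol activate the LXR receptors, which raise the exporters Abca1 and Abcg1. Tumor cells draw on the pathway for membranes, and macrophages, which are frequent in such tumors, express both exporters.

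The sequences next to the start sites are shown because the list is defined by this shared control. RefSeq windows of 250 bases before the start (GRCm38.p6) were at hand for 24 of the 32 genes, and Scd1, Scd2, Fads1, Fdft1, Fdps, Sqle, Stard4 and Abcg1 were not matched. The following are those of Hmgcs1 (chr13:119690101-119690350, plus strand), which makes the precursor of mevalonate, of Lss (chr10:76531355-76531604, plus strand), which closes the ring of lanosterol, and of Fasn (chr11:120824548-120824797, minus strand), the fatty acid synthase. They are written 5′ to 3′, and capitals mark a sterol regulatory element (SRE, TCACNCCAC) and CCAAT boxes, which read ATTGG where they lie on the other strand.
Hmgcs1: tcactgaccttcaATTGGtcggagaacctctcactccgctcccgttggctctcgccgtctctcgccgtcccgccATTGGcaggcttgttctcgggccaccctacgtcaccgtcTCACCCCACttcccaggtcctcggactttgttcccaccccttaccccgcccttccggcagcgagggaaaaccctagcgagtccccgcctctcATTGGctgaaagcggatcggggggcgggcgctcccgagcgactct
Lss: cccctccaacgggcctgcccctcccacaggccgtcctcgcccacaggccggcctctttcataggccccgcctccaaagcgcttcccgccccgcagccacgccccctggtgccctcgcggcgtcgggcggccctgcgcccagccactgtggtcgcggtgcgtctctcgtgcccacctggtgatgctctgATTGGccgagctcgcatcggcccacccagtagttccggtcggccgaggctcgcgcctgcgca
Fasn: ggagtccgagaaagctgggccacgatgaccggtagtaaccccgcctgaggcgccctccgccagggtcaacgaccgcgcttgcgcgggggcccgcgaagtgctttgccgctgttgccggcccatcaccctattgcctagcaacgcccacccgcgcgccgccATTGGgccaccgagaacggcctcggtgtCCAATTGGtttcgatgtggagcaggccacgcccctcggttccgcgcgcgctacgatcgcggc
Searched on both strands, the SRE was found in 1 of 24 windows, that of Hmgcs1, where it lies 137 bases before the start. The share was 4.17%, against 1.22% of the windows of 27025 genes. The CCAAT box was in 18 of 24 windows, or 75%, against 37.5% of all genes. The GC box GGGCGG, which can share end bases with the other motifs, was in 19 of 24, or 79.2%, against 35.4%. No window of the 24 held the LXR element, 2 copies of AGGTCA in tandem with 4 bases between them, which 0.0148% of all genes hold there. The 2 CCAAT boxes of Fasn nearest to the start share bases, since CCAATTGG reads the same on both strands. These matches are of letters only.

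Levels are given as counts per 1000000 (CPM), that is estimated counts per 1000000 of a tumor's total scaled by edgeR's TMM factor. The totals lay between 27067349 and 31958793 counts and the factors between 0.956 and 1.063. All 32 genes passed the filter of a mean of 0.5 CPM, as 13118 genes did, with means over the 6 tumors from 16.0 to 768 CPM and no fewer than 336 counts in any tumor. A positive log2 fold change stands for a higher level with H89, in edgeR's quasi-likelihood test over all 13118 genes.

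The sterol and fatty acid genes of H89 tumors lay within a 2-fold change of their level in NaCl tumors. With Benjamini-Hochberg adjustment, 0 of 32 genes had an edgeR p under 0.05, where 1.59% of all genes tested did (0.861% higher and 0.724% lower). DESeq2 also gave 0 of 32, where 7.47% of all genes passed in it. At an unadjusted p under 0.05, 2 of 32 genes (6.25%) were called by edgeR and by DESeq2, Lss and Sqle, both higher. Of all genes tested, edgeR called 25.0% (13.1% higher and 11.9% lower) and DESeq2 17.7% (8.25% higher and 9.5% lower). The 3 H89 values lay apart from the 3 NaCl values for 1 of 32 genes (3.12%), Lss, against 30.6% of all genes tested. The log2 fold change was positive for 21 genes and negative for 11, and the sign of Mvd, Tm7sf2, Msmo1, Acly, Fasn, Scd1, Fads1 and Fads2, all near 0 but that of Fasn, turned under at least 1 other scaling or filter. Its median was 0.07, where that of all genes was 0.004, and its median size was 0.14, where that of all genes was 0.19. The 95% interval of the fold change lay within 2-fold up or down for 32 of 32 genes (82.4% of all genes tested) and within 1.5-fold for 22 of 32 (58.7%). Adjusted p-values ran from 0.156 to 0.990, and Bonferroni-adjusted p-values were 1 for all 32.

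**Figure D1:**
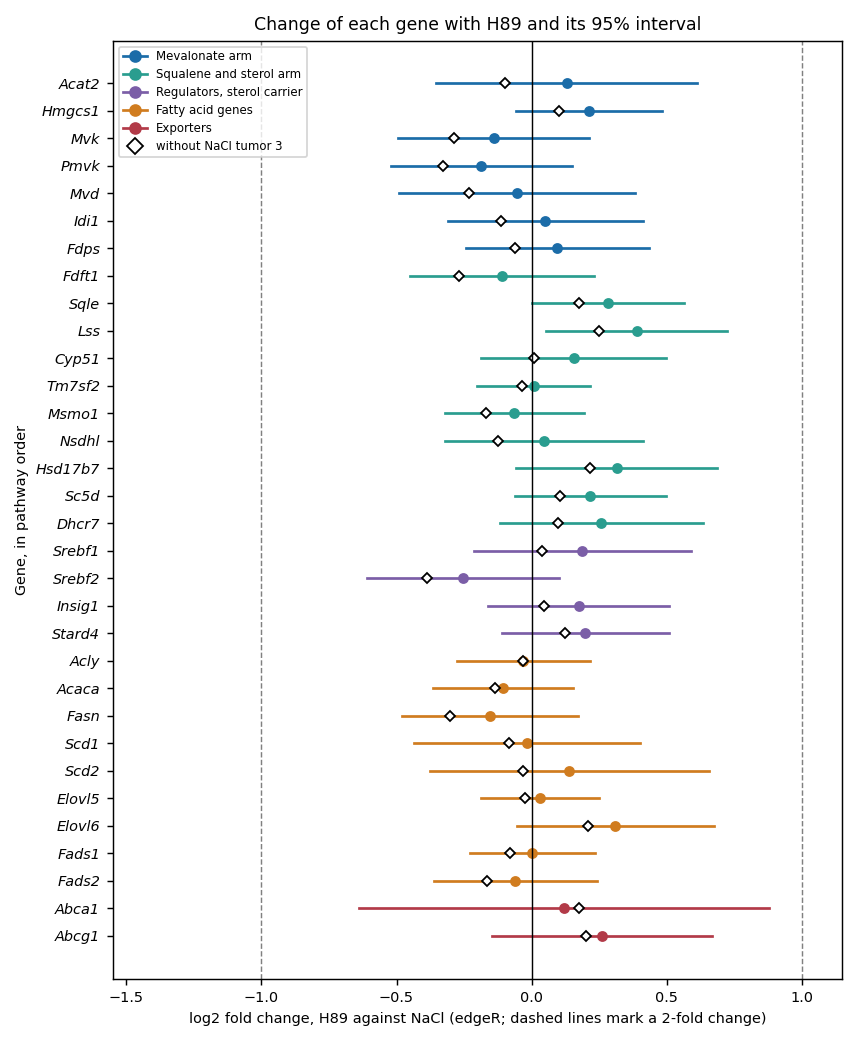
log2 fold change of H89 against NaCl tumors for each of the 32 genes (horizontal axis; filled points, edgeR) with its 95% interval (lines), colored by step of the pathway, and the same value without NaCl tumor 3 (open diamonds). Only the intervals of Sqle and Lss lie above 0, none reaches the dashed lines of a 2-fold change, and most diamonds lie to the left of their points.

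NaCl tumor 3 stood apart in these genes. It had the lowest level of all 6 tumors in 17 of 17 genes of the mevalonate and sterol steps and in 25 of 32 genes in all, while it was lowest in 18.4% of all genes tested. Its level was between 56.4% (Acat2) and 91.4% (Tm7sf2) of the mean of NaCl tumors 1 and 2 in the 17 genes, with a median of 71.5%, where the median over all genes was 99.9%. NaCl tumor 2 was the highest of its group in 16 of the 17. The mean log2(CPM + 0.5) over the 17 genes was 6.03, 6.17 and 5.64 in NaCl tumors 1 to 3 and 6.07, 6.11 and 5.98 in H89 tumors 1 to 3. Both NaCl extremes thus lay outside the range of the H89 tumors, and NaCl tumor 1 inside it. The total count of NaCl tumor 3, 27883614, lay between those of the other 2 NaCl tumors, and its TMM factor was 0.981. The plot of fold changes therefore also gives each gene's value without it.

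**Figure D2:**
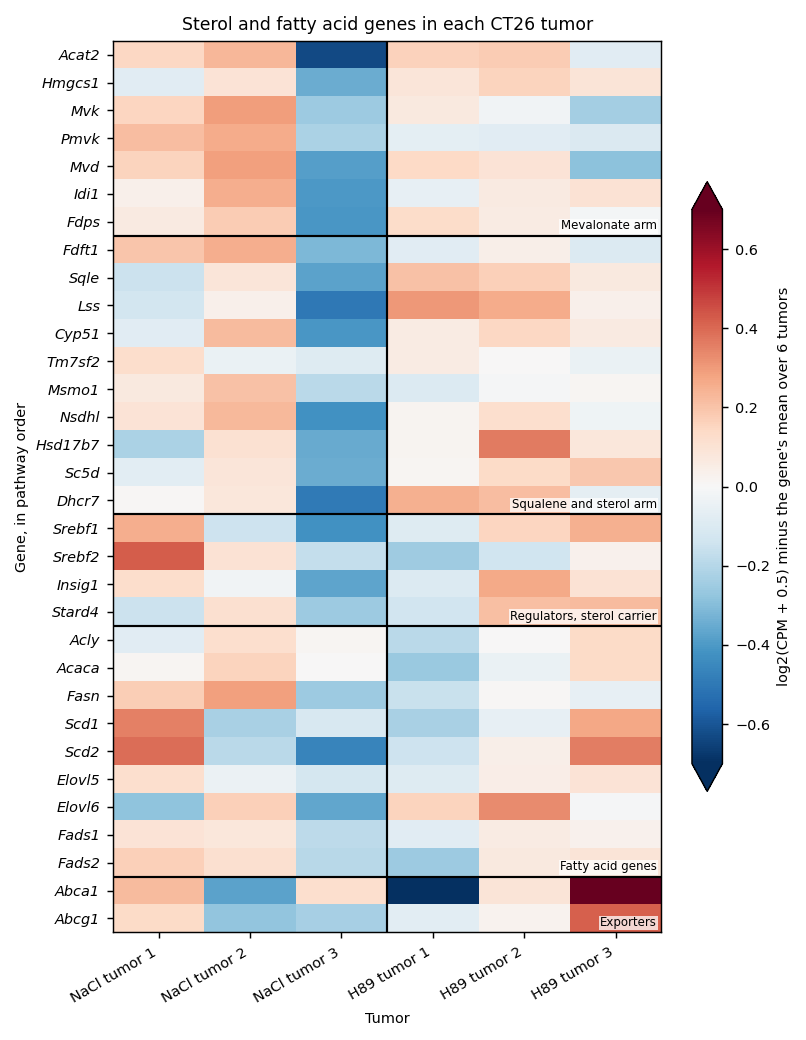
Level of the 32 genes (rows, in pathway order) in the 6 tumors (columns), as log2(CPM + 0.5) minus the gene's mean over the 6 tumors, in color. The color scale is capped, and H89 tumor 1 passes it for Abca1. The column of NaCl tumor 3 is blue in 17 of 17 mevalonate and sterol genes.

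The steps from squalene to cholesterol held both called genes. Fdft1 makes squalene, Sqle oxidizes it in a rate-limiting step, Lss cyclizes the product to lanosterol, and Cyp51, Tm7sf2, Msmo1, Nsdhl, Hsd17b7, Sc5d and Dhcr7 trim and reduce lanosterol to cholesterol. Of these 10 genes, 2 were higher with H89 at an unadjusted p under 0.05 (20%, against 13.1% of all genes tested) and 0 lower, 8 had a positive log2 fold change, and the median was 0.19.

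Lss (ENSMUSG00000033105, chromosome 10, 76531588 to 76557138, GRCm38 with GENCODE M21, as all gene positions here) was at 48.1, 53.8 and 36.9 CPM in NaCl tumors 1 to 3 and at 64.9, 63.0 and 53.9 CPM in H89 tumors 1 to 3. All H89 values lay above all NaCl values, but H89 tumor 3 and NaCl tumor 2 all but met. The means were 46.3 ± 8.58 and 60.6 ± 5.87 CPM (SD, n = 3 each, exact two-sided permutation p = 0.1, the smallest possible for 3 tumors against 3). The log2 fold change was 0.39 (SE 0.145, 95% interval 0.05 to 0.72, edgeR Benjamini-Hochberg adjusted p = 0.156). It was 0.25 without NaCl tumor 3, 0.34 without H89 tumor 1 and 0.36 without H89 tumor 2, with an unadjusted p above 0.05 in each of these fits and adjusted p of 0.301, 0.238 and 0.315 by edgeR. Exons of Lss overlap 4930483K19Rik.

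Sqle (ENSMUSG00000022351, chromosome 15, 59315077 to 59331192) was at 133, 156 and 114 CPM in the NaCl and at 170, 166 and 155 CPM in the H89 tumors 1 to 3. NaCl tumor 2 lay between H89 tumors 3 and 2, and the groups overlapped by that tumor alone (exact two-sided permutation p = 0.2). The log2 fold change was 0.28 (SE 0.122, 95% interval 0.00 to 0.57, edgeR Benjamini-Hochberg adjusted p = 0.197). It was 0.18 without NaCl tumor 3 (edgeR adjusted p = 0.402) and 0.41 without NaCl tumor 2 (edgeR adjusted p = 0.162), the only tumor without which the unadjusted p of Sqle stayed under 0.05. Without NaCl tumor 1, H89 tumor 1, H89 tumor 2 or H89 tumor 3 it lay at 0.28, 0.26, 0.27 and 0.32.

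The other 8 genes of these steps overlapped between groups. Hsd17b7, a ketosteroid reductase, had the largest log2 fold change among them, 0.31 (edgeR adjusted p = 0.265). It was at 13.5, 17.0 and 12.3 CPM in NaCl and at 16.0, 20.5 and 16.7 CPM in H89 tumors, so that NaCl tumor 2 exceeded H89 tumors 1 and 3. Dhcr7, the last reductase, had 0.26, Sc5d, a desaturase, 0.22 and Cyp51, the lanosterol demethylase, 0.15, each with an edgeR p above 0.05. The log2 fold changes of Tm7sf2, Nsdhl, Msmo1 and Fdft1 lay between -0.11 (Fdft1) and 0.05 (Nsdhl). Without NaCl tumor 3 the log2 fold changes were 0.22 for Hsd17b7, 0.10 for Dhcr7, 0.11 for Sc5d and 0.01 for Cyp51, and the median of the 10 genes was 0.05.

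The steps up to farnesyl diphosphate were of mixed sign. Acat2 joins 2 acetyl-CoA, Hmgcs1 adds another, Mvk, Pmvk and Mvd phosphorylate and decarboxylate mevalonate, Idi1 isomerizes the product and Fdps joins the units. Of these 7 genes, edgeR and DESeq2 called 0 in either direction at an unadjusted p under 0.05, against 25.0% and 17.7% of all genes tested. The log2 fold change was positive for 4 of the 7, and the median was 0.05.

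Hmgcs1 (ENSMUSG00000093930, chromosome 13, 119690379 to 119708260) was at 139, 157 and 115 CPM in NaCl and at 156, 164 and 156 CPM in H89 tumors 1 to 3. The H89 tumors lay close together, and NaCl tumor 2 lay among them (exact two-sided permutation p = 0.3). Its log2 fold change was 0.21 (SE 0.117, edgeR Benjamini-Hochberg adjusted p = 0.297). With NaCl tumor 3 left out it was 0.10. Its exons overlap Gm48342. Acat2 showed the deepest drop in NaCl tumor 3, with 68.0, 72.2 and 39.6 CPM in NaCl and 68.8, 69.5 and 58.2 CPM in H89 tumors. Its log2 fold change was 0.13, and -0.10 without NaCl tumor 3. Pmvk was at 21.0, 21.7 and 15.4 CPM in NaCl and at 17.2, 17.1 and 16.8 CPM in H89 tumors. The H89 tumors thus lay below NaCl tumors 1 and 2 and above NaCl tumor 3, and the log2 fold change was -0.19 (edgeR adjusted p = 0.453). Mvk and Mvd had -0.14 and -0.05, and Idi1 and Fdps 0.05 and 0.10.

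**Figure D3:**
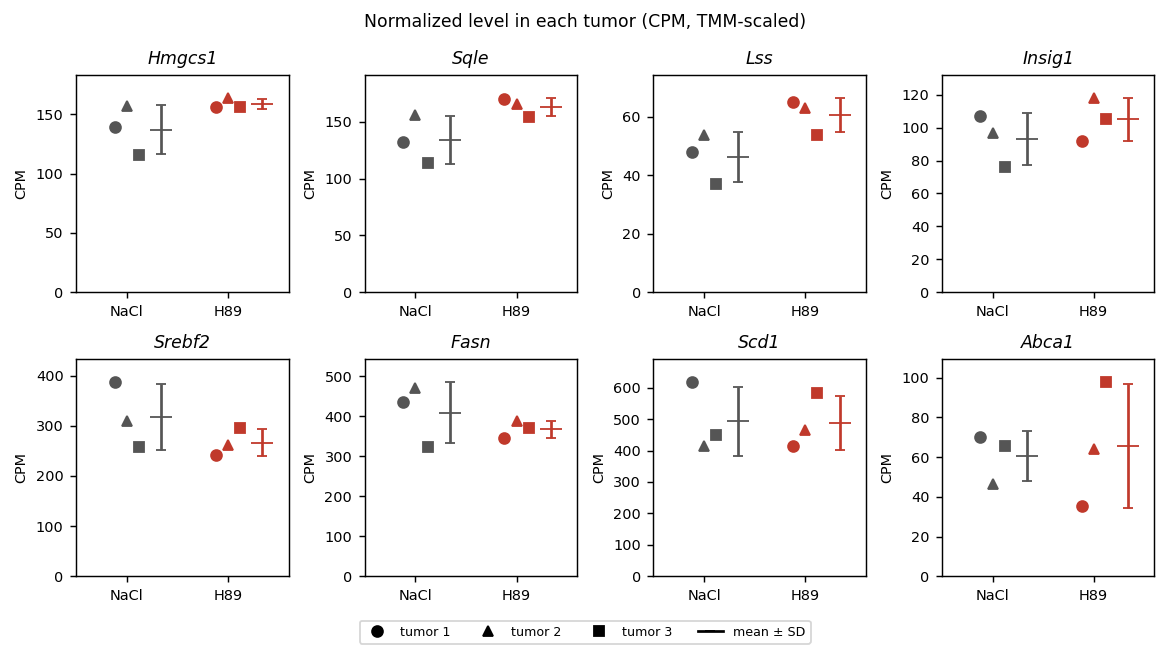
CPM (vertical axes, each from 0) of 8 genes in each tumor, with circles, triangles and squares for tumors 1, 2 and 3 of the NaCl and H89 groups, and the mean ± SD of 3 tumors beside them. Only the points of Lss do not overlap between groups, and the square of NaCl tumor 3 is the lowest in Hmgcs1, Sqle, Lss, Insig1 and Fasn.

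Among the regulators, the genes of the SREBP factors had log2 fold changes of opposite sign. Srebf1 and Srebf2 encode the SREBP precursors, Insig1 their retention protein, itself a sterol-sensitive target, and Stard4 a carrier of cholesterol between membranes. None of the 4 genes was called by edgeR or DESeq2 at an unadjusted p under 0.05, against 25.0% and 17.7% of all genes tested. The groups overlapped in each of the 4 genes.

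Srebf2 (ENSMUSG00000022463, chromosome 15, 82147181 to 82205379), the factor of the sterol genes, was at 387, 310 and 257 CPM in NaCl and at 242, 262 and 295 CPM in H89 tumors 1 to 3. NaCl tumors 1 and 2 lay above all H89 tumors and NaCl tumor 3 among them. Its log2 fold change, -0.25 (SE 0.154, 95% interval -0.61 to 0.10, edgeR adjusted p = 0.336), was the most negative of the 32. Srebf1 (ENSMUSG00000020538, chromosome 11, 60199089 to 60222581), the factor of the fatty acid genes, was at 209, 158 and 130 CPM in NaCl and at 164, 194 and 208 CPM in H89 tumors. NaCl tumor 1 and H89 tumor 3 were close to equal, and the log2 fold change was 0.19 (SE 0.174, edgeR adjusted p = 0.532). Without NaCl tumor 3 the values were -0.39 for Srebf2 (edgeR adjusted p = 0.218) and 0.04 for Srebf1. Exons of Srebf1 overlap Mir6922 and Rai1, and the table does not separate its 2 forms.

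Insig1 (ENSMUSG00000045294, chromosome 5, 28071363 to 28078662) was at 107, 96.5 and 75.8 CPM in NaCl and at 91.7, 118 and 105 CPM in H89 tumors. H89 tumor 2 was the highest and NaCl tumor 3 the lowest of the 6, and the log2 fold change was 0.17 (SE 0.145, edgeR adjusted p = 0.485). Stard4 was at 52.3, 63.0 and 48.7 CPM in NaCl and at 52.9, 67.3 and 67.9 CPM in H89 tumors, a log2 fold change of 0.20 (edgeR adjusted p = 0.388). Without NaCl tumor 3 the values were 0.04 for Insig1 and 0.12 for Stard4. NaCl tumor 3 was the lowest of the 6 tumors in 3 of the 4 genes and H89 tumor 1 in the fourth, Srebf2.

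The fatty acid genes were centered near 0. Acly splits citrate to acetyl-CoA, Acaca carboxylates it, Fasn builds palmitate, Elovl5 and Elovl6 lengthen the chain, and Scd1, Scd2, Fads1 and Fads2 set double bonds. Of these 9 genes, edgeR and DESeq2 called 0 in either direction at an unadjusted p under 0.05, against 25.0% and 17.7% of all genes tested. The log2 fold change was positive for 4 and negative for 5, and the median was -0.02. That median ranged from -0.03 (DESeq2) to 0.07 (quantile normalization) over the other filters, scalings and tools. With 1 tumor left out it ranged from -0.11 to 0.05.

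Fasn (ENSMUSG00000025153, chromosome 11, 120805846 to 120824547) was at 435, 470 and 323 CPM in NaCl and at 345, 387 and 369 CPM in H89 tumors 1 to 3. The H89 tumors filled the gap between NaCl tumor 3 and the other NaCl tumors. The log2 fold change was -0.16 (SE 0.141, edgeR adjusted p = 0.524), -0.30 without NaCl tumor 3 (edgeR adjusted p = 0.206), and 0.01 under quantile normalization with limma. Elovl6 had the largest change of the 9, 0.31 (SE 0.158, edgeR adjusted p = 0.263), at 35.5, 48.7 and 33.5 CPM in NaCl and 48.2, 54.6 and 43.0 CPM in H89 tumors, with NaCl tumor 2 above H89 tumors 1 and 3. It had 0.21 without NaCl tumor 3.

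Scd1 and Scd2, which encode stearoyl-CoA desaturases, both lie on chromosome 19 (44394455 to 44407879 and 44293674 to 44306864). Scd1 was at 618, 414 and 448 CPM in NaCl and at 413, 466 and 583 CPM in H89 tumors, with NaCl tumor 1 the highest and a log2 fold change of -0.02 (SE 0.181). Scd2 was at 988, 660 and 546 CPM in NaCl and at 679, 774 and 964 CPM in H89 tumors, with NaCl tumor 1 again the highest and 0.14 (SE 0.223). Without NaCl tumor 3 the values were -0.08 for Scd1 and -0.03 for Scd2. In both genes NaCl tumor 1 and H89 tumor 3 were the top pair, which differs from the order in the sterol genes. Reads of such near copies can be shared, and the counts of Scd1 to Scd4 summed gave a log2 fold change of 0.08 (SE 0.202). Exons of Scd2 also overlap Mir5114.

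Among the remaining 5 fatty acid genes the log2 fold change lay between -0.11 (Acaca) and 0.03 (Elovl5). H89 tumor 1 was the lowest of its group in 8 of the 9 genes, all but Elovl6, and in 4 of 4 regulators, where it was lowest in 34.7% of all genes tested. NaCl tumor 3 was the lowest of the 6 tumors in 5 of the 9 genes. Its median level, 83.1% of the mean of the other NaCl tumors, was less reduced than in the sterol steps, and Acly was at 99.5%.

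The exporters, LXR targets that pass cholesterol to lipoproteins, varied among the H89 tumors. Abca1 (ENSMUSG00000015243, chromosome 4, 53030787 to 53159895) was at 70.2, 46.2 and 65.4 CPM in NaCl and at 35.5, 63.9 and 97.8 CPM in H89 tumors 1 to 3. H89 tumors 1 and 3 were the lowest and the highest of the 6. The log2 fold change was 0.12 (SE 0.328, 95% interval -0.64 to 0.88), the widest interval of the 32, and -0.28 without H89 tumor 3. Abcg1 (ENSMUSG00000024030, chromosome 17, 31057675 to 31117988) was at 18.4, 13.7 and 14.1 CPM in NaCl and at 15.9, 17.0 and 22.5 CPM in H89 tumors, a log2 fold change of 0.26 (SE 0.176, edgeR adjusted p = 0.391). H89 tumor 3 was the highest of the 6 in both exporters, and NaCl tumor 1 lay above H89 tumors 1 and 2. Neither exporter was at its lowest in NaCl tumor 3, where Abca1 was at 112% and Abcg1 at 88.1% of the mean of NaCl tumors 1 and 2.

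Per length, as mean CPM over the 6 tumors per kilobase of the longest principal transcript, Scd2 (141), Fdps (139), Scd1 (102), Msmo1 (88.6) and Fads1 (80.7) were the most abundant of the 32. Srebf2 (57.6) lay above Srebf1 (41.2) on this scale. Abca1 (6.16), Hsd17b7 (3.47) and Abcg1 (2.90) were the least abundant. These levels order the genes by transcript, without correction for how reads of shared exons were divided.

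The spread between tumors of a group was larger in NaCl than in H89 tumors for most of these genes. The SD of log2(CPM + 0.5) was larger over the NaCl than over the H89 tumors in 17 of 17 mevalonate and sterol genes and in 27 of 32 genes in all, where it was larger in 44.5% of all genes tested. NaCl tumor 3 was the lowest of the 6 tumors in the same 17 genes. The median SD of the 17 genes was 0.29 in NaCl and 0.07 in H89 tumors, while over all genes it was 0.13 and 0.15. Of the fatty acid genes 7 of 9 had the larger SD in NaCl, with medians of 0.19 and 0.17. Both exporters had the larger SD in H89 tumors, with medians of 0.27 and 0.49. The 17 genes share their tumors, and with 3 tumors per group the difference in spread was not tested.

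**Figure D4:**
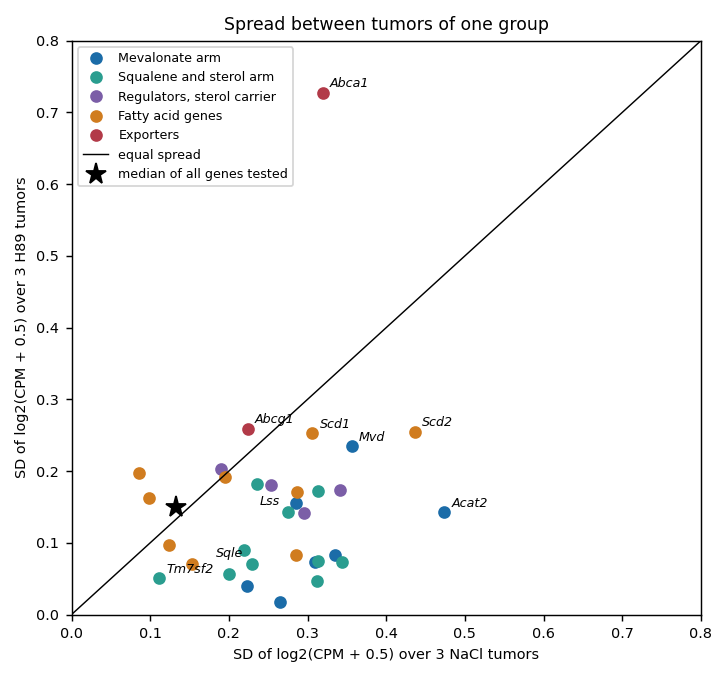
SD of log2(CPM + 0.5) over the 3 NaCl tumors (horizontal axis) and the 3 H89 tumors (vertical axis) for each of the 32 genes, colored by step; the line marks equal spread and the star the median of all genes tested. The 17 mevalonate and sterol genes lie below the line, to the right of or below the star, and Abca1 lies far above it.

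NaCl tumor 3 was the lowest of its group in 28 of these same 32 genes, so that leaving it out raises their NaCl mean. The log2 fold change was lower without it in 31 of 32 genes. The counts of that fit follow in part from the choice of this tumor and are no separate test of H89. Without NaCl tumor 3, the log2 fold change of 8 of 32 genes turned from positive to negative, and 11 were negative with and without it. The median of the 32 genes was then -0.03, and 19 of 32 were negative, 10 of them among the 17 mevalonate and sterol genes (median -0.06) and 8 of them among the 9 fatty acid genes (median -0.08). At an unadjusted edgeR p under 0.05, 0 genes were higher and 4 were lower, Fasn, Fdft1, Srebf2 and Pmvk, where 19.2% of all genes had such a p in that fit (9.62% lower). Fdft1 and Pmvk had log2 fold changes of -0.27 (edgeR adjusted p = 0.209) and -0.33 (edgeR adjusted p = 0.218), and the Benjamini-Hochberg adjusted p of the 4 genes ran from 0.206 to 0.218. Without NaCl tumor 2, the highest NaCl tumor in most of the sterol genes, 7 of 32 genes were higher at that threshold (Cyp51, Elovl6, Hmgcs1, Hsd17b7, Lss, Sc5d and Sqle) and 0 lower. In that fit 10.1% of all genes were higher and 8.78% lower. Leaving out NaCl tumor 2 lowers the NaCl mean of most sterol genes. These counts too follow in part from the choice of tumor and are no separate test of H89. The median of the 32 genes was 0.12 without NaCl tumor 2 and 0.15 without NaCl tumor 1, and without NaCl tumor 3 alone it was negative. In the fits without NaCl tumor 2 or 3, 0% of all genes tested passed the Benjamini-Hochberg threshold.

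The other genes of the pathways, 69 listed by name of which 62 were tested, moved in both directions. At an unadjusted edgeR p under 0.05, 7 were higher and 8 lower with H89, together 24.2% against 25.0% of all genes tested. With Benjamini-Hochberg adjustment 1 was higher, Acsl3, and 1 lower, Rxrb, against 1.59% of all genes. The median log2 fold change was 0.008. Every H89 tumor lay above every NaCl tumor in 8 of these 62 and below in 12, together 32.3%. The share over all genes was close to this, at 30.6%, so separation alone does not set the genes named below apart.

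Among the further sterol synthesis genes, those lower at an unadjusted p under 0.05 pass electrons to many enzymes besides those of sterol synthesis. Por, the cytochrome P450 reductase, had a log2 fold change of -0.35 (edgeR adjusted p = 0.0857) and Cyb5r3, the cytochrome b5 reductase, one of -0.55 (edgeR Benjamini-Hochberg adjusted p = 0.0633), and neither overlapped between groups. Ggps1, which makes geranylgeranyl diphosphate, did not overlap either, with 0.20 (edgeR adjusted p = 0.332).

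Among the further genes of SREBP control and sterol uptake, Erlin1, a scaffold protein of the endoplasmic reticulum, was lower at an unadjusted p under 0.05, with -0.41 (edgeR adjusted p = 0.150). Mbtps1, the protease that makes the first cut in SREBP, and Faf2, which helps to extract ubiquitinated proteins, were lower in every H89 tumor than in any NaCl tumor, with -0.17 and -0.12, at an edgeR p above 0.05.

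Among 25 tested genes of fatty acid and lipid synthesis, 3 were higher and 2 lower at an unadjusted edgeR p under 0.05. Together these were 20%, against 25.0% of all genes tested. Acsl3, which activates fatty acids at lipid droplets, was at 27.4, 28.8 and 26.4 CPM in NaCl and at 36.2, 42.8 and 40.4 CPM in H89 tumors. Its groups were far apart for their spread, with a log2 fold change of 0.53 (SE 0.0945, edgeR Benjamini-Hochberg adjusted p = 0.0446). Scd4, a desaturase of low abundance, had 1.00 (edgeR adjusted p = 0.0827). Thrsp, a lipogenic factor of fat tissue, had 3.75 (edgeR adjusted p = 0.172), but H89 tumor 1 alone carried it, at 3.42 CPM against 0.0608 to 0.213 in the other 5 tumors. In H89 tumor 1 the fat cell genes Adipoq (1.5 CPM, at most 0.0912 elsewhere), Cfd (7.45 CPM, at most 0.447 elsewhere) and Car3 (8.13 CPM, at most 0.729 elsewhere) were high too. The fat cell genes Fabp4 (23.2 CPM, with 34.9 in NaCl tumor 3) and Plin4 (4.71 CPM, with 6.69 in NaCl tumor 1) were not highest there. The part of fat cells in the value of Thrsp was not tested. Mid1ip1, a partner of Thrsp and an activator of acetyl-CoA carboxylase, was lower, with -0.33 (edgeR adjusted p = 0.0796). Fads3, a desaturase, was lower as well, with -0.42 (edgeR adjusted p = 0.0868). Acss2 and Acsl1, which make acetyl-CoA and long-chain acyl-CoA, lay higher in all H89 tumors (0.28 and 0.30) and Me1, the malic enzyme, lower (-0.08), each at an edgeR p above 0.05.

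Among 16 tested genes of the LXR system and sterol efflux, 3 were higher and 2 lower at an unadjusted edgeR p under 0.05. Together these were 31.2%, against 25.0% of all genes tested. Rxrb, a partner receptor of LXR and of other nuclear receptors, was at 85.4, 86.7 and 79.3 CPM in NaCl and at 65.5, 62.1 and 60.7 CPM in H89 tumors. The groups did not overlap, and the log2 fold change was -0.42 (SE 0.0772, edgeR Benjamini-Hochberg adjusted p = 0.0481). Nr1h3, which encodes LXR alpha, had 0.58 (edgeR adjusted p = 0.111) at 2.71 ± 0.104 and 4.04 ± 0.425 CPM (SD, 3 tumors each), without overlap. Pltp, the phospholipid transfer protein, had 0.50 (edgeR adjusted p = 0.140) and Ch25h, which makes an oxysterol, 0.48 (edgeR adjusted p = 0.178), each with some overlap. Scarb1, the HDL receptor, had -0.22 (edgeR adjusted p = 0.192). Rxra, a second partner receptor, was lower (-0.15) and Cyp27a1, a sterol hydroxylase, higher (0.67) in every H89 tumor, at an edgeR p above 0.05. In the 6 fits that left out 1 tumor, the edgeR adjusted p of Acsl3 lay between 0.0667 and 0.149 and that of Rxrb between 0.0667 and 0.142, where 0% to 0.0917% of all genes tested passed the threshold. Both also missed it under quantile normalization and Rxrb under upper quartile normalization, voom and total-count scaling. With DESeq2, in which 7.47% of all genes passed, both passed, as did Por, Cyb5r3, Mid1ip1, Fads3, Scd4 and Thrsp.

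Cells that express these pathways strongly were looked for by their markers, as sums of CPM over each list in NaCl tumors 1 to 3 and H89 tumors 1 to 3. Sebaceous gland markers, of skin glands rich in lipid synthesis, summed to between 2.51 and 4.70 in the 6 tumors, with 6 of 8 under the filter and Mc5r and Cidea at 0. The fat cell markers summed to 31.9, 45.0 and 47.3 and to 63.8, 37.2 and 31.7, and the defining Adipoq, Plin1, Cidec and Lep were under the filter. Of 11 keratinocyte markers measured, 8 were under the filter, and Krt1, Krt15, Ivl and Dsg1a were at 0. Their sums, 47.1, 54.2 and 74.3 and 19.2, 15.5 and 16.8, were mostly those of Cdsn, at 43.1, 51.1 and 69.7 CPM in NaCl and 14.3, 10.3 and 12.4 CPM in H89 tumors. Skeletal muscle markers summed to 1.36 to 2.92 in 5 tumors and to 20.6 in H89 tumor 1. H89 tumor 1, in which most of the fatty acid genes were lowest of the H89 group, was thus the tumor with the highest sums of fat cell and muscle markers.

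Macrophage markers, of cells that express Abca1 and Abcg1, summed to 2151, 3437 and 2931 and to 2682, 2597 and 3153, with 1 of 10 higher at an unadjusted edgeR p under 0.05, where 13.1% of all genes tested were higher and 11.9% lower. T cell markers summed to 25.8, 13.6 and 11.9 and to 44.3, 24.1 and 62.1, with 6 of 8 higher at that threshold. The groups overlapped in each of these 8 genes, and their edgeR adjusted p was 0.101 (Cd3g) or more. Fibroblast markers summed to between 2477 and 2708 and between 2780 and 3565, with 3 of 7 higher at an unadjusted edgeR p under 0.05. Proliferation markers summed to 1161, 1279 and 1201 and to 1256, 1393 and 1277, with 0 of 8 called by edgeR in either direction, and NaCl tumor 3 held the middle of its group. NaCl tumor 3 had the highest endothelial sum, 160 against 82.4 to 129 elsewhere, the highest Cdsn and the lowest T cell sum. Neutrophil markers summed to between 17.9 and 22.0 and between 20.8 and 35.3. The colon epithelium and carcinoma markers summed to between 110 and 124 and between 77.1 and 92.9. Of them, Epcam, Cdx2 and Vil1 were under the filter in these tumors of a colon carcinoma line. Of the 5 tested, 2 were lower at an unadjusted edgeR p under 0.05, against 11.9% of all genes tested. The part of these cell types in the sterol and fatty acid genes was not tested.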

How the data were processed

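Total RNA of 6 frozen CT26 tumors was sequenced on the BGISEQ-500 platform. The authors deposited 1 table of estimated counts per gene. It is called TPM, but the columns' sums per tumor (27067349 to 31958793) and the 58.6% to 61.4% of values above 0 within 0.01 of a whole number are those of estimated counts, unscaled for depth and length. The submitters' processing notes name kallisto, DESeq2 and GRCm38, with no version or role. Any filter on reads is not given in the sources used here. The gene columns named here were listed one by one and the others read in the same way, and 0 columns were left without a tumor.

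Counts were rounded. Of 23557 genes, 13118 had a mean of at least 0.5 CPM, and edgeR 4.0.16 (R 4.3.3) was run on these (TMM, glmQLFit, glmQLFTest, treatment as the only term), and p-values were adjusted over all of them. SE is the absolute log2 fold change over the square root of F. The exact permutation test compared mean log2(CPM + 0.5). Of estimated counts, 18 of the 32 genes had values more than 0.1 from a whole number, as where reads are divided, and exons of 10 overlap another gene. No gene of the 32 had fewer than 336 counts in a tumor.

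The 32 genes and all other lists were chosen with earlier results of these data known. Of the 32 genes, values per tumor were given for those with an unadjusted p under 0.05 or groups that do not overlap, Lss and Sqle. They were also given for chosen enzymes, regulators and exporters (Hmgcs1, Insig1, Srebf1, Srebf2, Fasn, Scd1, Scd2, Abca1 and Abcg1). Further genes of the 32 were shown so where the text turns on them. Of the other pathway genes, Acsl3 and Rxrb were shown per tumor. Of the other pathway lists, up to 8 genes each were named by p. The test was repeated without the filter, with a minimum mean of 5 CPM, with median ratio, upper quartile and quantile normalization (limma 3.58.1), DESeq2 1.42.0 on 18828 genes, voom, a robust fit, the replicate number as a block, each tumor left out, Bonferroni adjustment and Scd1 to Scd4 summed. Total-count scaling and CPM per deposited total were added after the data had been seen. 1 of the 69 further pathway genes was not analysed here. Results of some further pathway genes are not reported here, though the counts over all of them include these. The promoter windows are RefSeq's.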

Additional observations from a re-analysis of the deposited data

How the results depend on the processing

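Under every alternative 0 of the 32 genes passed the Benjamini-Hochberg threshold, which 0% of all genes passed under the replicate block, 0% to 0.0917% with 1 tumor left out and 0.617% to 7.47% under the other scalings, filters and tools. Acsl3 and Rxrb missed it under the block. The number higher with H89 at an unadjusted p under 0.05, 2 in the reported test, was 0 to 7 when 1 tumor was left out. It was 5 with the replicate number as a block (Dhcr7, Elovl6, Hsd17b7, Lss and Sqle), where 14% of all genes were higher at such a p. The number lower, 0, was 0 to 4 with 1 tumor left out. In these fits 9.58% to 12.4% of all genes were higher and 7.89% to 13.9% lower at such a p. The number without overlap, 1, was 1 to 10 in them (fewer tumors overlap less easily), and 2 with CPM per deposited total (Sqle being added). The share of all genes without overlap is not given for these settings, so these numbers cannot be set against it. The number of other pathway genes that were higher, 7, was 4 to 8 with 1 tumor left out. Total-count scaling gave 11 of these and moved the median of all genes to 0.08. Deviations from the group means correlated across genes at 0.163, 0.0614 and -0.0251 for the 3 same-numbered pairs of tumors. For the other pairs they correlated at -0.373 to 0.350. With 3 tumors per group, these values cannot decide whether the numbers pair the tumors. The causes were not tested.

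Log2 fold changes near 0 changed sign. Total-count scaling gave 0.0112 for Mvd, 0.00699 for Msmo1, 0.0431 for Acly, 0.0636 for Scd1 and 0.0146 for Fads2. Quantile normalization gave 0.0220 for Msmo1, 0.0726 for Acly, 0.0137 for Fasn and 0.194 for Scd1. A minimum mean of 5 CPM gave 0.00154 for Acly and 0.0157 for Scd1, upper quartile normalization 0.0104 for Scd1, and the summed Scd genes 0.0804. Leaving out the filter and DESeq2 gave -0.00581 and -0.00968 for Tm7sf2 and -0.0107 and -0.0142 for Fads1. With 1 tumor left out, the ranges that crossed 0 were -0.098 to 0.28 for Acat2, -0.23 to 0.082 for Mvd, -0.11 to 0.21 for Idi1, -0.061 to 0.21 for Fdps, -0.035 to 0.074 for Tm7sf2, -0.17 to 0.026 for Msmo1, -0.13 to 0.18 for Nsdhl, -0.11 to 0.051 for Acly, -0.17 to 0.18 for Scd1, -0.033 to 0.42 for Scd2, -0.024 to 0.10 for Elovl5, -0.081 to 0.051 for Fads1, -0.17 to 0.042 for Fads2 and -0.28 to 0.42 for Abca1. Of the other settings of the 32 genes, 300 kept their direction and side of the threshold and 5 passed it anew.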
